A study of Mus musculus with 9 samples.

Results

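The SLC25 carriers were taken as the 47 protein-coding mouse genes whose symbol begins with Slc25a, of 56719 genes counted in each liver library, and 43 of the 47 passed the filter on low counts. They were followed in 9 libraries of polyadenylated liver RNA from C57BL/6J mice, 3 libraries in each of 3 groups. FMT-Con A mice were gavaged for 4 weeks with suspended faeces of mice from a Con A-induced AIH model and were then given Con A at 10 mg/kg into the tail vein. Con A mice received PBS over those weeks and the same Con A injection. WT mice received PBS over those weeks and PBS into the tail vein. Con A (concanavalin A) is a lectin of jack beans that stimulates T cells, and its injection is a common way to cause acute hepatitis in mice. Tissue was collected on the day of the injection, and the hours from injection to collection are not given in the sources used here. The groups analysed here include no mice given faeces without Con A, so transfer and injection cannot be told apart in FMT-Con A against WT. All groups share the strain and the 4 weeks of gavage or PBS. The labels disagree on sex, and transcripts of the Y-linked gene Ddx3y were present in all 9 libraries, at 2849 to 3166 counts in FMT-Con A, 2676 to 3017 in Con A and 3008 to 6192 in WT. The X-linked gene Xist had 81 to 109 counts in FMT-Con A, 21 to 77 in Con A and 25 to 139 in WT.

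SLC25 proteins are small carriers of the inner mitochondrial membrane, built from repeated pairs of membrane-spanning helices, that exchange metabolites between the cytosol and the mitochondrial matrix. In hepatocytes they serve the urea cycle (ornithine, aspartate and glutamate carriers), the malate-aspartate shuttle, the export of citrate for fatty acid synthesis, the import of acylcarnitines for fat oxidation, and the exchange of ADP for ATP. Others bring in cofactors that the matrix cannot make, such as NAD, coenzyme A and S-adenosylmethionine, or iron for haem and iron-sulphur clusters. A few members lie elsewhere, such as Slc25a17 in peroxisomes and Slc25a46 in the outer mitochondrial membrane.

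The libraries held 21580482 to 29466806 counts in FMT-Con A, 21772376 to 25890947 in Con A and 20513051 to 22770276 in WT. Levels are given as CPM, read counts relative to library size scaled by edgeR's TMM factors, in the order of libraries 1, 2 and 3 of each group, with the mean ± SD where groups are summarised. A floor of 3 counts corresponded to 0.0947 to 0.157 CPM per library, which covers counting error only. The 10 hepatocyte markers summed to 46082 to 56195 CPM in FMT-Con A, 70654 to 82320 CPM in Con A and 60041 to 70388 CPM in WT. The 24 skeletal muscle genes, by contrast, summed to 19744, 2067 and 19560 CPM in FMT-Con A, to 15.7, 26.0 and 2402 CPM in Con A, and to 63.0, 53.9 and 67.0 CPM in WT. Skeletal muscle RNA was thus higher in every FMT-Con A library than in any WT library and was also high in library Con A 3. The 8 neutrophil markers summed to 207 to 327 CPM in FMT-Con A, 264 to 463 CPM in Con A and 9.36 to 14.5 CPM in WT. Kupffer cell and macrophage markers summed to 72.5 to 130 CPM in FMT-Con A, 139 to 165 CPM in Con A and 167 to 238 CPM in WT. Cholangiocyte markers summed to 94.5 to 238 CPM in FMT-Con A, 117 to 279 CPM in Con A and 22.6 to 27.2 CPM in WT. Fat cell markers reached 62.7 to 161 CPM in FMT-Con A, 49.4 to 68.3 CPM in Con A and 3.05 to 56.1 CPM in WT, and stellate cell markers 222 to 666 CPM in FMT-Con A, 170 to 342 CPM in Con A and 234 to 274 CPM in WT. The sums of T and NK cell, B cell, endothelial, pancreas and cardiac markers did not exceed 156 CPM in any library. Mitochondrial-genome transcripts made up 7.44 to 11.7% of counts in FMT-Con A, 5.03 to 9.96% in Con A and 19.6 to 22.4% in WT. In such bulk RNA, fewer cells of a type and less RNA per cell cannot be told apart. Results were therefore also computed without Con A 3, FMT-Con A 1 and FMT-Con A 3, here called the muscle-rich libraries. FMT-Con A 2 is then the only library of its group, is assumed to vary like the others, and still holds muscle RNA.

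Summed over the 47 genes, the family stood at 2690, 2536 and 2573 CPM in FMT-Con A, 3484, 2397 and 2690 CPM in Con A, and 2601, 2621 and 2820 CPM in WT. The Con A group spanned the other 2 groups in this sum. Without Slc25a4, Slc25a12 and Slc25a34, the carriers described below with the skeletal muscle genes, the sum was 2020, 2424 and 1944 CPM in FMT-Con A, 3456, 2368 and 2560 CPM in Con A, and 2571, 2594 and 2790 CPM in WT. FMT-Con A then lay below WT without overlap. The carriers left out are high in FMT-Con A libraries of these same data, so leaving them out fixes this difference in part. Over all 47 genes FMT-Con A (2536 to 2690 CPM) and WT (2601 to 2820 CPM) overlapped. Per kilobase of exon, which allows genes to be compared, the highest mean over the 9 libraries belonged to Slc25a5, the broadly expressed ADP/ATP carrier, at 138 CPM per kb. Slc25a47, a carrier known from liver, followed at 118 CPM per kb, then the glutathione carrier Slc25a39 at 63.2, Slc25a4 at 57.8, the phosphate carrier Slc25a3 at 47.5 and the citrate carrier Slc25a1 at 42.0 CPM per kb. Slc25a15 at 34.6 and Slc25a51 at 24.6 CPM per kb completed the first 8. The place of Slc25a4 rested on FMT-Con A: its group means were 158 CPM per kb in FMT-Con A, 13.5 in Con A and 1.68 in WT. In WT alone Slc25a47 and Slc25a5 led with 122 and 120 CPM per kb.

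**Figure D1:**
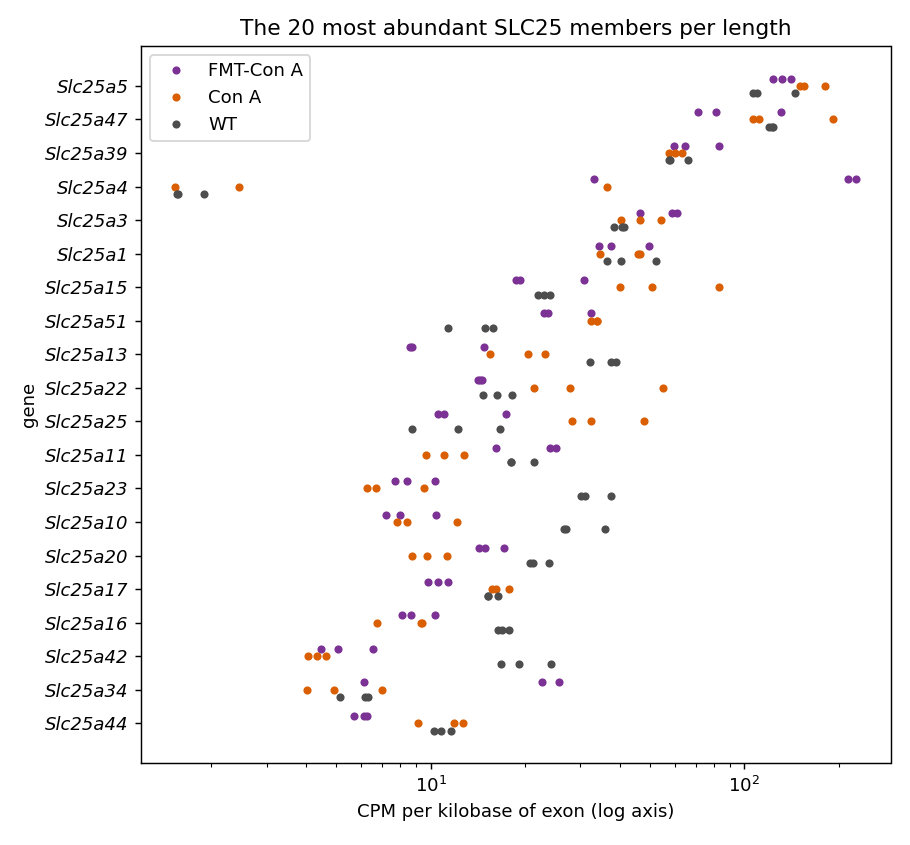
Level of the 20 SLC25 genes with the highest mean per length, in CPM per kilobase of exon on a log axis, 1 dot per library, with FMT-Con A in purple, Con A in orange and WT in grey. Slc25a4 runs over the widest range, with group means of 158, 13.5 and 1.68 CPM per kb in FMT-Con A, Con A and WT, while Slc25a39 stays between group means of 60.2 and 69.0.

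Con A against WT asked what the injection did to carrier transcripts without any transfer. Of the 43 genes tested, 9 were higher and 19 lower in Con A at an edgeR adjusted p under 0.05, and 15 did not pass. Over all 17704 genes tested 63.4% were called, 32.5% higher and 30.9% lower, so the share of carriers called is near the background and is no result about the family as such. The median log2 fold change of the 43 was -0.14, against 0.01 over all genes. The 3 Con A and 3 WT libraries did not overlap for 30 of the 43 carriers, beside 69.8% of all genes. Leaving out the muscle-rich libraries gave 23 calls, 5 higher and 18 lower, beside 56.2% of all genes (28.8% higher and 27.4% lower). All 23 were among the 28, and Slc25a4, Slc25a5, Slc25a26, Slc25a33 and Slc25a46 lost their call. The 28 kept their direction there. DESeq2 also called 28, beside 64.4% of all genes.

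FMT-Con A against Con A asked what the faecal transfer added to the injection. In this comparison 17 of the 43 carriers were called, 9 higher and 8 lower, beside 16.8% of all genes (6.26% higher and 10.6% lower). Their median log2 fold change was -0.08, against -0.01 over all genes, and the groups did not overlap for 18 carriers, beside 32.7% of all genes. The count moved with single libraries. Without FMT-Con A 1 there were 5, beside 3.64% of all genes, and without FMT-Con A 3 also 5, beside 4.26%, and both times these included Slc25a11, Slc25a17, Slc25a20 and Slc25a44. Without Con A 1 there were 6, beside 4.39% of all genes, and with only these 2 groups in the fit 7, beside 7.09%, so calls over all genes dropped in these fits as well. Once the muscle-rich libraries were left out 1 carrier was called, Slc25a4, beside 2.58% of all genes (1.28% higher and 1.3% lower). None of the 17 was called there, though all 17 kept their direction and 16 of 44 carriers had an unadjusted p under 0.05. With the skeletal muscle sum as a covariate in edgeR, 0 of the 43 were called, beside 2.11% of all genes, and 11 had an unadjusted p under 0.05. That sum largely follows the group, at 2067 to 19744 CPM in FMT-Con A, 15.7 to 2402 in Con A and 53.9 to 67.0 in WT. In every fit with this covariate muscle and group therefore cannot be fully told apart, and its values are not muscle-corrected estimates. In that fit the log2 fold changes of Slc25a11, Slc25a15, Slc25a21, Slc25a22 and Slc25a35, each called with 9 libraries, were 0.46, -0.81, -0.28, -0.83 and 1.06. DESeq2 on all 9 libraries called 18, beside 22.5% of all genes. Every FMT-Con A against Con A call given for a carrier is subject to these limits.

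FMT-Con A against WT set transfer and injection together against neither. It called 22 carriers, 7 higher and 15 lower, beside 59.0% of all genes (31.2% higher and 27.9% lower). The median log2 fold change was -0.11, against 0.03 over all genes, and the groups did not overlap for 27 carriers, beside 69.1% of all genes. Of the carriers 15 were called with the muscle-rich libraries left out, 3 higher and 12 lower, beside 39.9% of all genes (22.1% higher and 17.8% lower), and 14 of them were among the 22. The other was Slc25a36, which had 4.18 CPM in FMT-Con A 2 but 9.22 and 9.23 CPM in FMT-Con A 1 and 3. With the muscle covariate the count was 11, beside 29.4% of all genes. DESeq2 called 22, beside 59.9% of all genes. The comparisons share libraries with each other, so their results for a gene are not independent.

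**Figure D2:**
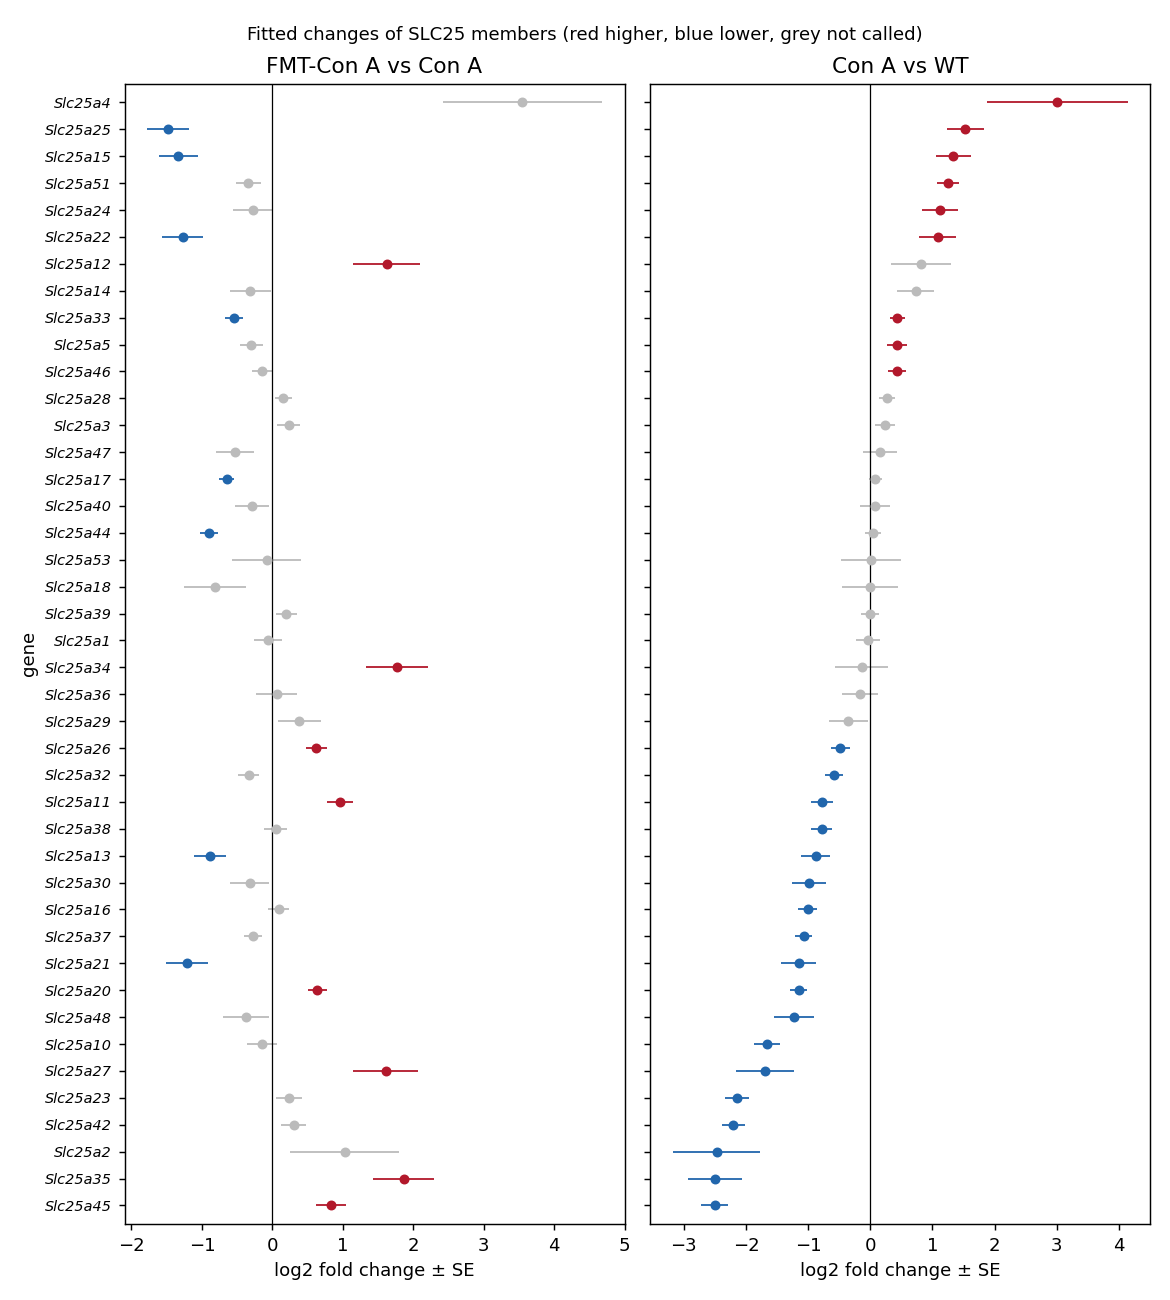
Log2 fold change ± SE from edgeR for 42 of the SLC25 genes tested, in FMT-Con A against Con A (left) and Con A against WT (right), ordered by the right panel, with genes called higher in red, lower in blue and not called in grey. In the right panel the changes run from -2.50 (Slc25a45) to 3.01 (Slc25a4). The panels share the Con A libraries.

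Counts by carrier group, here and below, stand beside 32.5% of all genes called higher and 30.9% called lower in Con A against WT. No carrier group was tested as a set. Of the 7 adenine nucleotide carriers 5 were tested, and after Con A 4 of them were higher and 1 was lower than in WT. Of the 4, Slc25a4 and Slc25a5 were not called without the muscle-rich libraries. The calcium-regulated ATP-Mg/phosphate carriers, which adjust the adenine nucleotide content of the matrix, went in opposite directions. Slc25a25 (ENSMUSG00000026819, chr2:32414487-32451445; all positions are on GRCm38) had 86.8, 137 and 83.0 CPM in FMT-Con A, 376, 222 and 256 CPM in Con A, and 96.0, 131 and 68.3 CPM in WT. Every Con A library lay above every library of the other 2 groups, and FMT-Con A and WT overlapped. Its log2 fold change was 1.53 ± 0.30 in Con A against WT (SE, edgeR adjusted p = 0.00134) and -1.48 ± 0.30 in FMT-Con A against Con A (edgeR adjusted p = 0.0130). Slc25a23 (chr17:57043711-57059863), its close relative, had 44.5, 54.8 and 40.6 CPM in FMT-Con A, 50.4, 35.4 and 33.2 CPM in Con A, and 160, 165 and 199 CPM in WT. Both injected groups lay well below WT and overlapped each other. It fell by 2.14 ± 0.19 on the log2 scale in Con A against WT (edgeR adjusted p = 1.06e-05) and by 1.90 ± 0.19 in FMT-Con A against WT (edgeR adjusted p = 2.94e-05).

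The other relative, Slc25a24, was a minor transcript with 1.80, 1.42 and 1.34 CPM in FMT-Con A, 2.41, 1.41 and 1.74 CPM in Con A, and 0.824, 0.796 and 0.920 CPM in WT. Its WT libraries were the 3 lowest. The rise was 1.12 ± 0.29 on the log2 scale in Con A against WT (edgeR adjusted p = 0.00735). Per kilobase, Slc25a23 had the highest WT mean of these 3 relatives, at 33.0 CPM per kb, against 12.5 for Slc25a25 and 0.247 for Slc25a24. In Con A the order was Slc25a25 at 36.2, Slc25a23 at 7.49 and Slc25a24 at 0.540 CPM per kb, and in FMT-Con A Slc25a25 stood at 13.0 and Slc25a23 at 8.81. The ADP/ATP carrier Slc25a5 had 217, 232 and 203 CPM in FMT-Con A, 298, 247 and 254 CPM in Con A, and 175, 181 and 238 CPM in WT. Con A libraries were the highest, by a narrow margin over WT 3, and the log2 fold change of 0.43 ± 0.16 in Con A against WT (edgeR adjusted p = 0.0363) was not called without the muscle-rich libraries, where it was as large with fewer libraries (0.46 ± 0.19, edgeR adjusted p = 0.0660). Its processed pseudogene Slc25a5-ps had 2 to 14 counts per library. Slc25a31, the germ cell form of the ADP/ATP carrier, had 0 to 6 counts per library and Slc25a41 had 1 count in all, and neither was tested. Testis markers were equally scarce, at 0 to 0.291 CPM summed.

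The promoter windows of Slc25a25, Slc25a15 and Slc25a42 are shown because, of the carriers averaging over 50 CPM and apart from Slc25a4, the first pair had the largest rises and Slc25a42 the largest fall in Con A against WT. They are RefSeq sequences on GRCm38.p6, from 250 bases before to 50 after a listed start, written 5' to 3' on the gene's strand, with matches to the motifs searched in capitals.
Slc25a25, chr2:32424017-32424316, minus strand: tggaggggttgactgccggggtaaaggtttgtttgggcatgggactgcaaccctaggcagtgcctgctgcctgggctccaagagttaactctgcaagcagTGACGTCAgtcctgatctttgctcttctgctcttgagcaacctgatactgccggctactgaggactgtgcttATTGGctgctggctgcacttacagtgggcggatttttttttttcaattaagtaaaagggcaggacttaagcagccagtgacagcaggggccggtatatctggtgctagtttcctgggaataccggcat
Slc25a15, chr8:22398572-22398871, minus strand: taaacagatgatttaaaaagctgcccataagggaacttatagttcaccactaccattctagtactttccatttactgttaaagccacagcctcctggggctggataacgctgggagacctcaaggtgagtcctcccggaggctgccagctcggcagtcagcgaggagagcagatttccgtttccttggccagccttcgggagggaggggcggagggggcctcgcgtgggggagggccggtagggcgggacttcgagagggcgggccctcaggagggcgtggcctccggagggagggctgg
Slc25a42, chr8:70212232-70212531, minus strand: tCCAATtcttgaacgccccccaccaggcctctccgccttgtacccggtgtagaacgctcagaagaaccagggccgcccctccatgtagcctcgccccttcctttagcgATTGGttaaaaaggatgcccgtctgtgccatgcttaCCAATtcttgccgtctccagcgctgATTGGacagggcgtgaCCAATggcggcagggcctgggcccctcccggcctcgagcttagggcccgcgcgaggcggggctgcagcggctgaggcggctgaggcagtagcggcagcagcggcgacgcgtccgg

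Windows were present for 36 of the 47 carriers and 32851 times over all genes. The 6 motifs searched on both strands were the CRE (TGACGTCA), E-box (CACGTG), AP-1 (TGANTCA), GAS (TTCNNNGAA), C/EBP-ATF (TGATGCAA) and CCAAT box (CCAAT), none of which contains another in full. The windows of a gene were ordered by distance to its principal transcript start in GENCODE, then by position. Slc25a25 has 3 listed starts and no principal start to rank them. Its first window, shown here, is the lowest in position and lies inside the gene. It alone of the 3 holds a CRE, 150 bases upstream of its start, with a CCAAT box 78 bases upstream on the other strand. A CRE was found in the first window of 2 of 36 carriers (5.556%), Slc25a25 and Slc25a36, against 1.79% of all windows. The Slc25a15 window shown holds none of the 6 motifs, and its second window holds an E-box. The Slc25a42 window holds 5 CCAAT boxes, from 249 to 65 bases upstream. CCAAT boxes were found in 47.22% of the carriers' first windows and in 37.41% of all windows, E-boxes in 16.67% and 7.15%, AP-1 in 5.556% and 7.808%, and GAS in 5.556% and 8.298%. The C/EBP-ATF letters were in 0 of the 36, against 0.8949% of all windows. These matches describe letters and say nothing of factor binding.

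**Figure D3:**
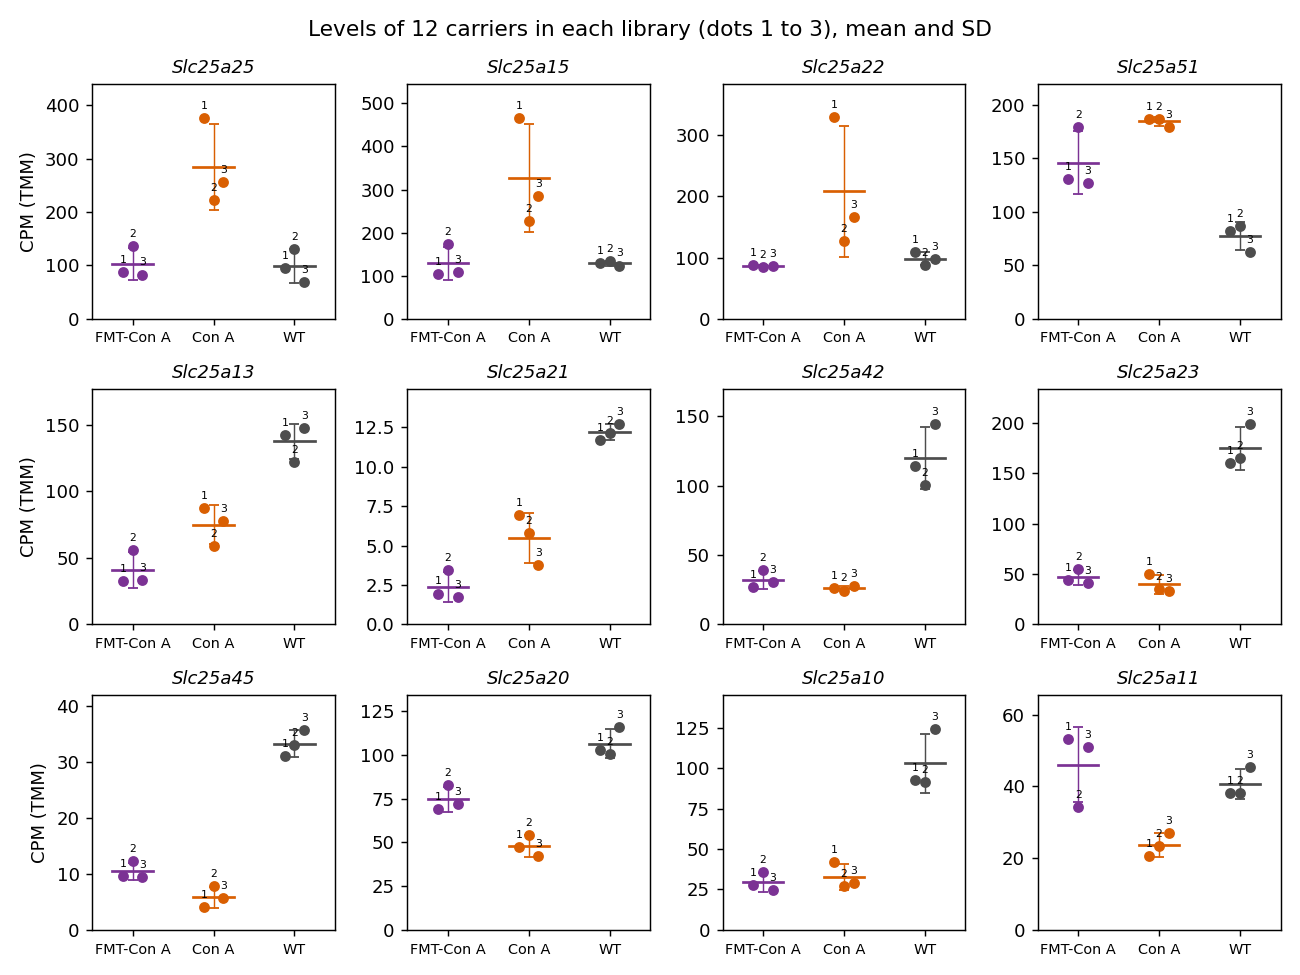
Level in CPM (TMM-scaled) of 12 SLC25 genes, 1 dot per library numbered 1 to 3, with the group mean as a line and the SD as a bar, for FMT-Con A, Con A and WT. Slc25a25, Slc25a15 and Slc25a22 are highest in Con A. Slc25a42, Slc25a23 and Slc25a45 are low in both injected groups, and Slc25a11 is lowest in Con A.

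Of the 9 amino acid carriers, all tested, 2 were higher and 3 lower in Con A than in WT. The 2 risers handle ornithine and glutamate. Slc25a15 (ENSMUSG00000031482, chr8:22375551-22398597), the main ornithine carrier of the urea cycle, had 105, 173 and 108 CPM in FMT-Con A, 466, 227 and 285 CPM in Con A, and 129, 135 and 124 CPM in WT. The Con A libraries lay above all others, Con A 1 most of all. Its log2 fold change was 1.33 ± 0.28 in Con A against WT (edgeR adjusted p = 0.00206) and -1.34 ± 0.28 in FMT-Con A against Con A (edgeR adjusted p = 0.0146). The glutamate carrier Slc25a22 (chr7:141429744-141437892) had 87.5, 84.6 and 86.0 CPM in FMT-Con A, 329, 128 and 167 CPM in Con A, and 109, 87.8 and 97.6 CPM in WT. Con A again did not overlap the other groups, and again Con A 1 stood apart. Its log2 fold change was 1.08 ± 0.29 in Con A against WT (edgeR adjusted p = 0.00865) and -1.27 ± 0.29 in FMT-Con A against Con A (edgeR adjusted p = 0.0206). Both rises over WT were as large without the muscle-rich libraries, at 1.42 ± 0.26 for Slc25a15 and 1.22 ± 0.33 for Slc25a22.

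Slc25a13 (chr6:6041218-6217173), the aspartate/glutamate carrier of hepatocytes, supplies aspartate to the urea cycle and to the malate-aspartate shuttle. It had 32.5, 56.3 and 33.1 CPM in FMT-Con A, 87.8, 58.9 and 77.7 CPM in Con A, and 143, 122 and 148 CPM in WT. The 3 groups did not overlap and formed a descending series of WT, Con A and FMT-Con A, although Con A 2 and FMT-Con A 2 differed by little. It fell by 0.88 ± 0.23 on the log2 scale in Con A against WT (edgeR adjusted p = 0.00717) and by 0.88 ± 0.23 in FMT-Con A against Con A (edgeR adjusted p = 0.0308), the second value being -0.35 ± 0.27 without the muscle-rich libraries (edgeR adjusted p = 0.528). In FMT-Con A against WT it fell by 1.76 ± 0.23 (edgeR adjusted p = 0.000166), and by 1.25 ± 0.27 without the muscle-rich libraries. Its counterpart of muscle and brain, Slc25a12, is described with the skeletal muscle genes. Slc25a44, a carrier of branched-chain amino acids, had group means of 21.6 ± 1.09 CPM in FMT-Con A, 40.2 ± 6.81 CPM in Con A and 38.9 ± 2.46 CPM in WT (SD, n = 3 each). It was lower with the transfer by 0.90 ± 0.13 against Con A (log2, edgeR adjusted p = 0.00438), and its log2 fold change in Con A against WT was 0.05.

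Slc25a38, the glycine carrier that feeds haem synthesis, fell by 0.78 ± 0.17 on the log2 scale in Con A against WT (edgeR adjusted p = 0.00225), with means of 21.2 ± 2.63 CPM in FMT-Con A, 20.5 ± 4.57 CPM in Con A and 35.3 ± 2.90 CPM in WT. Slc25a2, a second ornithine carrier, was called lower in Con A on very few reads, with 9, 4 and 3 counts in FMT-Con A, 2, 4 and 0 counts in Con A, and 14, 12 and 11 counts in WT. The remaining pair were also scarce and not called in any comparison of all 9 libraries: the glutamate carrier Slc25a18 had group means of 0.533, 0.946 and 0.932 CPM in FMT-Con A, Con A and WT, and Slc25a29, for basic amino acids, 1.97, 1.52 and 1.93 CPM.

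Of the 5 phosphate and organic acid carriers 3 were lower in Con A than in WT and the other 2, Slc25a1 and Slc25a3, were not called. Slc25a10 (chr11:120491840-120499187), which exchanges dicarboxylates such as malate and succinate for phosphate, had 27.6, 35.9 and 24.9 CPM in FMT-Con A, 41.9, 26.9 and 29.0 CPM in Con A, and 93.0, 91.8 and 124 CPM in WT. The injected groups overlapped each other and lay far below WT. It fell by 1.66 ± 0.21 on the log2 scale in Con A (edgeR adjusted p = 9.57e-05) and by 1.81 ± 0.21 in FMT-Con A (edgeR adjusted p = 7.83e-05), each against WT. Slc25a21 (chr12:56712634-57197472), the oxodicarboxylate carrier of lysine and tryptophan breakdown, had 1.96, 3.47 and 1.72 CPM in FMT-Con A, 6.91, 5.82 and 3.77 CPM in Con A, and 11.7, 12.2 and 12.7 CPM in WT. The 3 groups did not overlap, and FMT-Con A was the lowest. It fell by 1.15 ± 0.28 in Con A against WT (log2, edgeR adjusted p = 0.00544), by 1.22 ± 0.30 in FMT-Con A against Con A (edgeR adjusted p = 0.0248) and by 2.37 ± 0.30 in FMT-Con A against WT (edgeR adjusted p = 0.000120).

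Slc25a11, the oxoglutarate/malate carrier that works with Slc25a13 in the malate-aspartate shuttle, had 53.2, 34.1 and 51.0 CPM in FMT-Con A, 20.5, 23.3 and 27.1 CPM in Con A, and 38.2, 38.2 and 45.4 CPM in WT. Con A was the lowest group, and the 2 FMT-Con A libraries richest in muscle RNA were the highest. The log2 fold change was -0.78 ± 0.18 in Con A against WT (edgeR adjusted p = 0.00366), 0.96 ± 0.18 in FMT-Con A against Con A (edgeR adjusted p = 0.0100) and 0.18 ± 0.18 in FMT-Con A against WT, which was -0.21 ± 0.19 without the muscle-rich libraries. Some 8.92% of its exonic length overlaps Rnf167 on the opposite strand. The phosphate carrier Slc25a3, which supplies ATP synthase, had 339, 257 and 326 CPM in FMT-Con A, 302, 224 and 258 CPM in Con A, and 213, 225 and 230 CPM in WT. All FMT-Con A libraries exceeded WT, and the log2 fold change of 0.46 ± 0.16 (edgeR adjusted p = 0.0298) was not called without the muscle-rich libraries, where it was 0.24 ± 0.21. The citrate carrier Slc25a1 had 81.4, 107 and 74.5 CPM in FMT-Con A, 99.0, 75.0 and 101 CPM in Con A, and 87.4, 79.1 and 114 CPM in WT. The groups overlapped throughout, with log2 fold changes of -0.03 ± 0.19 in Con A against WT and -0.09 ± 0.19 in FMT-Con A against WT.

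Among the 10 carriers of cofactors and lipid precursors, 2 were higher and 6 lower in Con A than in WT. The steepest fall was that of Slc25a42 (ENSMUSG00000002346, chr8:70184340-70212305), which brings coenzyme A into the matrix. It had 26.9, 39.2 and 30.4 CPM in FMT-Con A, 26.1, 24.4 and 27.8 CPM in Con A, and 114, 101 and 145 CPM in WT. No injected library came near WT, and the injected groups overlapped. It fell by 2.20 ± 0.18 on the log2 scale in Con A against WT (edgeR adjusted p = 5.66e-06) and by 1.90 ± 0.18 in FMT-Con A against WT (edgeR adjusted p = 1.90e-05). The second coenzyme A-related carrier, Slc25a16 (chr10:62920633-62946498), had 39.0, 49.6 and 41.6 CPM in FMT-Con A, 44.9, 45.0 and 32.3 CPM in Con A, and 78.9, 85.4 and 81.0 CPM in WT. It too was lower in both injected groups, by 1.01 ± 0.15 in Con A (log2, edgeR adjusted p = 0.000285) and by 0.91 ± 0.15 in FMT-Con A (edgeR adjusted p = 0.000659), each against WT. With the muscle covariate the FMT-Con A value was -0.40 ± 0.18 and not called (edgeR adjusted p = 0.117). The peroxisomal member Slc25a17, which carries coenzyme A and other nucleotides, had means of 30.1 ± 2.27 CPM in FMT-Con A, 47.1 ± 3.19 CPM in Con A and 44.4 ± 1.97 CPM in WT (SD, n = 3 each). It was lower in FMT-Con A than in Con A, by 0.65 ± 0.10 (log2, edgeR adjusted p = 0.00598), with 0.08 ± 0.10 in Con A against WT.

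Slc25a20 (chr9:108662088-108684641), the carnitine/acylcarnitine carrier of fatty acid oxidation, had 69.3, 82.8 and 72.2 CPM in FMT-Con A, 47.2, 54.4 and 42.2 CPM in Con A, and 103, 101 and 116 CPM in WT. The groups did not overlap, and FMT-Con A lay between Con A and WT. Its log2 fold change was -1.15 ± 0.14 in Con A against WT (edgeR adjusted p = 5.49e-05), 0.64 ± 0.13 in FMT-Con A against Con A (edgeR adjusted p = 0.0149) and -0.51 ± 0.13 in FMT-Con A against WT (edgeR adjusted p = 0.00821). The call against WT was lost without the muscle-rich libraries (-0.33 ± 0.19, edgeR adjusted p = 0.205) and with the muscle covariate (-0.22 ± 0.21, edgeR adjusted p = 0.461). FMT-Con A 2, with the least muscle RNA of its group, had the highest level of the 3.

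Slc25a51 (chr4:45395923-45408766), the mammalian mitochondrial NAD carrier, was the clearest riser of this group. It had 130, 179 and 127 CPM in FMT-Con A, 187, 187 and 179 CPM in Con A, and 82.4, 87.0 and 62.8 CPM in WT. Both injected groups exceeded WT without overlap. It was higher on the log2 scale by 1.25 ± 0.18 in Con A (edgeR adjusted p = 0.000176) and 0.91 ± 0.17 in FMT-Con A (edgeR adjusted p = 0.00154), each against WT, and 1.28 ± 0.17 and 1.25 ± 0.20 without the muscle-rich libraries. Its 2 pyrimidine nucleotide relatives differed: Slc25a33 was higher in Con A by 0.44 ± 0.13 (log2, edgeR adjusted p = 0.0120) and lower in FMT-Con A than in Con A by 0.55 ± 0.13 (edgeR adjusted p = 0.0202), neither of them called without the muscle-rich libraries, while Slc25a36 was not called in any comparison of all 9 libraries. Without the muscle-rich libraries Slc25a36 was lower in FMT-Con A than in WT by 0.92 (log2), a value that rests on FMT-Con A 2 alone. Slc25a36 had 9.22, 4.18 and 9.23 CPM in FMT-Con A and 9.02, 6.88 and 8.44 CPM in WT. Of the exonic length of Slc25a33, 14.9% overlaps the opposite-strand gene Gm13068. The S-adenosylmethionine carrier Slc25a26 had means of 8.33 ± 0.379 CPM in FMT-Con A, 5.42 ± 0.637 CPM in Con A and 7.56 ± 0.177 CPM in WT (SD, n = 3 each). It fell by 0.48 ± 0.15 in Con A against WT (log2, edgeR adjusted p = 0.0174) and was higher by 0.62 ± 0.15 in FMT-Con A than in Con A (edgeR adjusted p = 0.0236), and neither was called without the muscle-rich libraries. Slc25a32, which carries folate and FAD, fell by 0.59 ± 0.15 in Con A (log2, edgeR adjusted p = 0.00663) and by 0.92 ± 0.15 in FMT-Con A (edgeR adjusted p = 0.000608), each against WT.

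**Figure D4:**
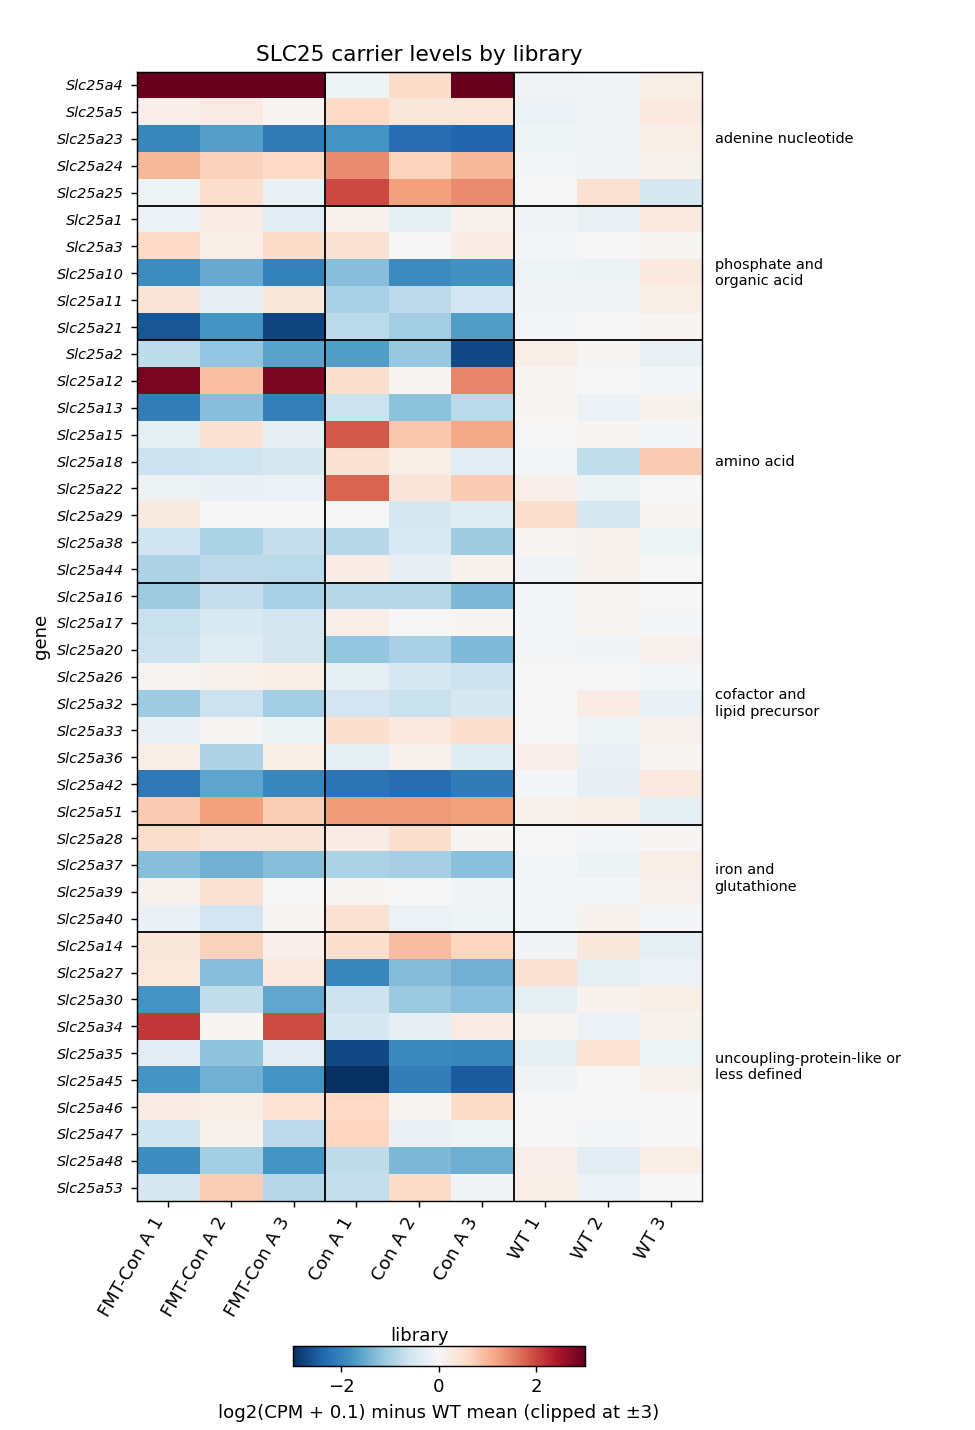
Level of 42 of the SLC25 genes tested in each library, as log2(CPM + 0.1) minus the WT mean of the gene, clipped at ±3, with libraries in columns and genes in rows grouped by what they carry. Red is above and blue below the WT mean. Slc25a42, Slc25a23 and Slc25a45 are blue in all 6 injected libraries, and Slc25a4 is red in the 4 libraries with most skeletal muscle RNA.

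Of the 4 iron and glutathione carriers Slc25a37 alone was called in Con A against WT. Slc25a37 (chr14:69241848-69285112), mitoferrin 1, imports iron in erythroid and other cells, and had 29.1, 26.2 and 29.1 CPM in FMT-Con A, 36.6, 35.4 and 29.8 CPM in Con A, and 68.2, 63.9 and 82.0 CPM in WT. FMT-Con A was lowest, Con A came next and WT was highest, without overlap. The margin between FMT-Con A and Con A was narrow, at 29.1 against 29.8 CPM. Their difference was not called (log2 fold change -0.27 ± 0.13, edgeR adjusted p = 0.171). It fell by 1.07 ± 0.13 on the log2 scale in Con A (edgeR adjusted p = 7.07e-05) and by 1.34 ± 0.13 in FMT-Con A (edgeR adjusted p = 2.47e-05), each against WT. The erythroid markers went the other way, with sums of 249 to 475 CPM in FMT-Con A, 249 to 617 CPM in Con A and 156 to 209 CPM in WT. Slc25a28, mitoferrin 2, was higher by 0.43 ± 0.13 in FMT-Con A than in WT (log2, edgeR adjusted p = 0.0154), with 0.27 ± 0.13 in Con A against WT. Without the muscle-rich libraries it was as large, at 0.42 ± 0.18, but not called (edgeR adjusted p = 0.0995). Slc25a39, which imports glutathione, had 178, 229 and 164 CPM in FMT-Con A, 174, 166 and 158 CPM in Con A, and 159, 159 and 182 CPM in WT. Its groups overlapped, and the log2 fold change in Con A against WT was -0.01 ± 0.15. Its relative Slc25a40 had means of 3.67, 4.52 and 4.28 CPM in FMT-Con A, Con A and WT and was not called.

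The remaining 12 carriers resemble uncoupling proteins or have substrates that are less well settled, and of the 10 tested 1 was higher and 5 lower in Con A than in WT. Slc25a45 (chr19:5877808-5885878) had 9.66, 12.2 and 9.46 CPM in FMT-Con A, 4.03, 7.76 and 5.76 CPM in Con A, and 31.1, 33.0 and 35.8 CPM in WT. The 3 groups did not overlap, with Con A the lowest. It fell by 2.50 ± 0.22 on the log2 scale in Con A against WT (edgeR adjusted p = 8.27e-06), fell by 1.67 ± 0.21 in FMT-Con A against WT (edgeR adjusted p = 0.000115) and was higher by 0.83 ± 0.21 in FMT-Con A than in Con A (edgeR adjusted p = 0.0291). Slc25a30 (chr14:75760117-75787037), an uncoupling-protein-like carrier, had 16.3, 33.9 and 19.1 CPM in FMT-Con A, 36.6, 26.1 and 23.8 CPM in Con A, and 46.4, 60.8 and 64.1 CPM in WT. Its injected groups overlapped below WT, and it fell by 0.99 ± 0.27 in Con A (log2, edgeR adjusted p = 0.00991) and by 1.31 ± 0.28 in FMT-Con A (edgeR adjusted p = 0.00258). Slc25a48 was scarcer, at 1.20, 2.23 and 1.26 CPM in FMT-Con A, 2.67, 1.75 and 1.62 CPM in Con A, and 5.13, 3.65 and 5.27 CPM in WT. It fell by 1.22 ± 0.32 in Con A (log2, edgeR adjusted p = 0.00705) and by 1.59 ± 0.32 in FMT-Con A (edgeR adjusted p = 0.00200). The FMT-Con A calls of Slc25a30 and Slc25a48 against WT were lost without the muscle-rich libraries, at -0.71 ± 0.26 and -1.03 ± 0.40 with edgeR adjusted p values of 0.0582 and 0.0679.

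Slc25a27 and Slc25a35 were low in Con A and near WT in the muscle-rich FMT-Con A libraries. Slc25a27, an uncoupling-protein-like carrier known from brain, had 2.90, 0.902 and 2.86 CPM in FMT-Con A, 0.524, 0.873 and 0.788 CPM in Con A, and 3.20, 1.87 and 2.05 CPM in WT. FMT-Con A 2 lay next to Con A and its sister libraries next to WT. On the log2 scale the difference was -1.69 ± 0.46 in Con A against WT (edgeR adjusted p = 0.00928) and 1.61 ± 0.46 in FMT-Con A against Con A (edgeR adjusted p = 0.0413), and the second value was 0.39 ± 0.58 without the muscle-rich libraries. Slc25a35 had 1.23, 0.617 and 1.22 CPM in FMT-Con A, 0.157, 0.340 and 0.332 CPM in Con A, and 1.28, 2.11 and 1.42 CPM in WT. Con A was lowest and WT highest, without overlap. The log2 fold change was -2.50 ± 0.43 in Con A against WT (edgeR adjusted p = 0.000650) and 1.87 ± 0.44 in FMT-Con A against Con A (edgeR adjusted p = 0.0213). Rangrf overlaps 31.3% of the exonic length of Slc25a35 on the opposite strand, and the counting is not stated to use strand. The count of Slc25a35 may therefore be affected by the overlap, in a direction that was not tested.

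Slc25a47 had 243, 392 and 213 CPM in FMT-Con A, 570, 318 and 333 CPM in Con A, and 370, 359 and 367 CPM in WT. Con A 1 was the highest and FMT-Con A 1 and 3 the lowest, the WT libraries agreed closely, and no comparison of all 9 libraries was called, with a log2 fold change of 0.16 ± 0.27 in Con A against WT. Slc25a46, an outer-membrane protein of mitochondrial shape, was the riser of these 10, by 0.43 ± 0.15 in Con A against WT (log2, edgeR adjusted p = 0.0271), and lost the call without the muscle-rich libraries at an edgeR adjusted p of 0.106. Slc25a14, uncoupling-protein-like, had a log2 fold change of 0.73 ± 0.30 in Con A against WT with an edgeR adjusted p of 0.0518, and Slc25a53 one of 0.01 ± 0.49. Slc25a43 had 6, 10 and 5 counts in FMT-Con A, 2, 3 and 0 in Con A, and 0, 3 and 5 in WT and was not tested, and Slc25a54 had 0 counts in all 9 libraries.

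Slc25a4 and Slc25a12 were highest in the libraries with most skeletal muscle RNA, and Slc25a34 was high in FMT-Con A 1 and 3. Slc25a4 (ENSMUSG00000031633, chr8:46206797-46211284), the ADP/ATP carrier of heart and skeletal muscle, had 536, 77.9 and 503 CPM in FMT-Con A, 3.61, 5.77 and 85.7 CPM in Con A, and 3.66, 3.70 and 4.47 CPM in WT. The 4 high libraries were the 4 with the largest sums of the 24 muscle genes. In those 4, Slc25a4 amounted to 27.1, 37.7 and 25.7 CPM per 1000 CPM of the muscle list in FMT-Con A and 35.7 in Con A 3, a range of less than 1.5 times while the list itself spanned 2067 to 19744 CPM. Its log2 fold change was 3.01 ± 1.13 in Con A against WT (edgeR adjusted p = 0.0399), 3.55 ± 1.13 in FMT-Con A against Con A (edgeR adjusted p = 0.0566) and 6.56 ± 1.31 in FMT-Con A against WT (edgeR adjusted p = 0.00195). Without the muscle-rich libraries it was 0.26 ± 0.23 in Con A against WT, where Con A 1 and 2 are left, and 4.08 ± 0.27 in FMT-Con A against Con A, where FMT-Con A 2 is left with 2067 CPM of muscle transcripts.

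Slc25a12 (ENSMUSG00000027010, chr2:71271063-71367749), the aspartate/glutamate carrier of muscle and brain, had 65.5, 17.0 and 64.9 CPM in FMT-Con A, 13.0, 9.61 and 25.2 CPM in Con A, and 9.25, 9.18 and 8.74 CPM in WT. It was highest in FMT-Con A 1 and 3, followed by Con A 3. Fitted log2 fold changes were 1.62 ± 0.48 in FMT-Con A against Con A (edgeR adjusted p = 0.0446) and 2.44 ± 0.49 in FMT-Con A against WT (edgeR adjusted p = 0.00205), and 0.62 ± 0.23 (edgeR adjusted p = 0.217) and 0.95 ± 0.22 (edgeR adjusted p = 0.00910) without the muscle-rich libraries. With the muscle covariate neither was called, at 0.03 ± 0.54 and 0.63 ± 0.56. Slc25a34 (chr4:141618824-141623821) had 68.5, 16.3 and 60.5 CPM in FMT-Con A, 10.8, 13.1 and 18.7 CPM in Con A, and 16.4, 13.8 and 16.9 CPM in WT. Only FMT-Con A 1 and 3 stood above WT by a wide margin. The log2 fold change was 1.77 ± 0.44 in FMT-Con A against Con A (edgeR adjusted p = 0.0256) and 1.63 ± 0.43 in FMT-Con A against WT (edgeR adjusted p = 0.00888), but 0.48 ± 0.23 and 0.09 ± 0.21 without the muscle-rich libraries. The part of skeletal muscle RNA in the values of the other carriers was not tested.

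**Figure D5:**
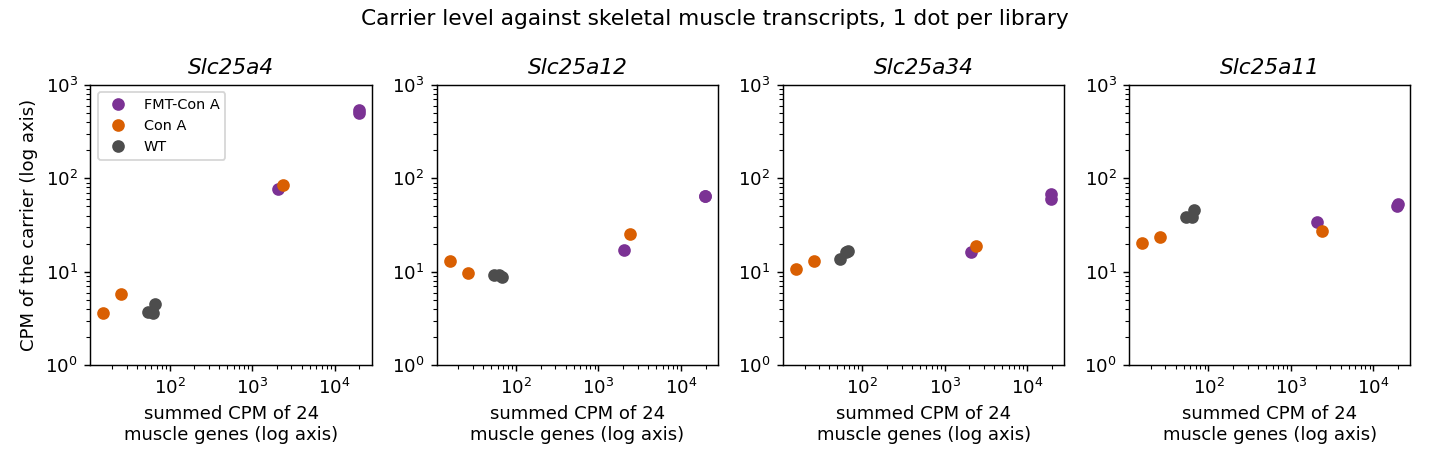
Level of 4 SLC25 genes in CPM against the summed CPM of 24 skeletal muscle genes, both on log axes, 1 dot per library, with FMT-Con A in purple, Con A in orange and WT in grey. Slc25a4 climbs to 536 CPM with the muscle sum. Slc25a12 is highest at the right edge, with 25.2 CPM in Con A 3 and 17.0 CPM in FMT-Con A 2 between the edge and WT. Slc25a34 is high at the right edge only, and Slc25a11 varies less, between 20.5 and 53.2 CPM.

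The lists of partner genes put the carriers beside the enzymes they serve, and their counts in Con A against WT stand beside the 32.5% of all genes called higher and 30.9% called lower. Of 6 shuttle enzymes 2 were higher and 1 lower in Con A than in WT. Got1, the cytosolic aspartate aminotransferase of the malate-aspartate shuttle, was higher by 2.52 ± 0.38 (log2, edgeR adjusted p = 0.000271) while the carrier genes Slc25a13 and Slc25a11 were lower. Of 10 urea cycle and ornithine enzymes 4 were higher and 2 lower in Con A than in WT, and 3 were lower in FMT-Con A than in Con A. Cps1, the first enzyme of the cycle, had 346, 535 and 333 CPM in FMT-Con A, 1962, 837 and 2029 CPM in Con A, and 652, 639 and 540 CPM in WT. It was thus highest in Con A, as the ornithine carrier Slc25a15 was. The log2 fold change of Cps1 was 1.40 ± 0.33 in Con A against WT (edgeR adjusted p = 0.00385) and -1.99 ± 0.33 in FMT-Con A against Con A (edgeR adjusted p = 0.00651). Arg2, the mitochondrial arginase, was higher by 3.57 ± 0.33 in Con A against WT, and Arg1, the abundant liver arginase, was lower by 1.09 ± 0.15 in FMT-Con A than in Con A.

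For fat and citrate metabolism, 3 of 14 carnitine and beta-oxidation genes were higher and 1 lower in Con A than in WT, among them Acadvl, a long-chain acyl-CoA dehydrogenase, higher by 1.60 ± 0.22 while Slc25a20 was lower. Of 9 citrate and lipogenesis genes 4 were lower, including Elovl6 by 1.71 ± 0.18 and Acaca, acetyl-CoA carboxylase, by 1.42 ± 0.23, with the citrate carrier Slc25a1 not called. Of 17 TCA cycle genes 6 were higher and 2 lower, led by pyruvate carboxylase, Pcx, at 2.07 ± 0.21. Among 11 users of folate, S-adenosylmethionine and thiamine 4 were higher and 3 lower. The mitochondrial folate enzymes Mthfd2 and Mthfd1l were higher by 3.44 ± 0.27 and 3.20 ± 0.27, beside a lower folate carrier Slc25a32. Of 15 haem and iron-sulphur genes 7 were lower, such as Cpox by 2.22 ± 0.13, and 1 was higher, the haem-degrading Hmox1, by 5.90 ± 0.25. All are log2 fold changes ± SE in Con A against WT, with edgeR adjusted p under 0.05.

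The lists of other carriers, carrier import, ATP synthase, respiratory chain, channels and biogenesis gave mixed counts in the same comparison. Of 11 carriers without an Slc25a symbol 1 was higher, the uncoupling protein Ucp2 by 1.96 ± 0.18 (log2 ± SE), and 5 were lower, Sfxn5 by 2.35 ± 0.13. Of 15 genes of the carrier import route 4 were higher and 5 lower, with Timm9, a chaperone of the intermembrane space that guides carriers to the inner membrane, lower by 2.10 ± 0.20. ATP synthase had 2 higher and 7 lower of 13, the nuclear respiratory chain subunits 6 and 5 of 17, the calcium uniporter and anion channels 3 and 1 of 11, and the regulators of biogenesis 4 and 5 of 11, with Ppargc1b lower by 2.84 ± 0.28. All 13 protein-coding transcripts of the mitochondrial genome were lower in Con A than in WT, and 12 of 13 in FMT-Con A than in WT.

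In FMT-Con A against Con A fewer partners were called, as over all genes (16.8%, against 63.4% in Con A against WT). Higher and lower numbered 1 and 0 for the other carriers, 3 and 0 for import, 1 and 1 for shuttle enzymes, 0 and 3 for the urea cycle, 1 and 1 for fat oxidation, 2 and 0 for citrate use, 3 and 2 for the TCA cycle, 1 and 3 for cofactor users, 1 and 2 for haem and iron-sulphur genes, 5 and 0 for ATP synthase, 3 and 0 for the respiratory chain and 1 and 1 for biogenesis. The channels and the mitochondrial-genome transcripts had 0 calls by edgeR, with 3 of 11 and 2 of 13 at an unadjusted p under 0.05, and 0 by DESeq2. With the muscle-rich libraries left out the calls were 2 of the other carriers, higher, and 1 TCA cycle gene, lower. In FMT-Con A against WT, where 59.0% of all genes were called, higher and lower numbered 4 and 4 for the other carriers, 5 and 2 for import, 3 and 2 for shuttle enzymes, 2 and 5 for the urea cycle, 4 and 2 for fat oxidation, 2 and 4 for citrate use, 10 and 1 for the TCA cycle, 5 and 4 for cofactor users, 3 and 7 for haem and iron-sulphur genes, 5 and 3 for ATP synthase, 9 and 1 for the respiratory chain, 4 and 1 for the channels and 4 and 4 for biogenesis. The TCA cycle and respiratory chain had median log2 fold changes of 0.58 and 0.45, and of 0.38 and 0.18 without the muscle-rich libraries. The TCA cycle list summed to 2785 to 3156 CPM in FMT-Con A and 3207 to 3846 CPM in WT. The respiratory chain list summed to 2123 to 2714 CPM in FMT-Con A and 1898 to 2259 CPM in WT. The part of muscle RNA in these counts was not tested.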

How the data were processed

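Liver polyadenylated RNA was extracted with Trizol and sequenced as 2 x 150 bases on an Illumina HiSeq instrument, per the labels' protocols. CASAVA, HISAT2 and featureCounts were used with GRCm38 (mm10), per the submitters' processing notes; versions, annotation release, strand setting and treatment of multi-mapping reads are not given in the sources used here. The deposited values are raw read counts per gene, 1 file per library, with no normalisation by the authors. Of the 56719 genes per file, 55359 have an Ensembl identifier, of which 52083 were paired with a symbol from GENCODE vM21, which also gave positions, gene types and exonic lengths. The sample titles number replicates and state nothing of separate animals. The p-values therefore reflect only how far these libraries differ from each other, which may be technical. By a median chi-square relative to sampling, FMT-Con A 1 and FMT-Con A 3 differed by 2.53, less than any WT pair (3.06 to 4.90). FMT-Con A 2 differed from them by 9.87 and 9.82, and from Con A 2 by 9.77. Whether FMT-Con A 1 and FMT-Con A 3 come from separate mice was not tested.

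One edgeR model (version 4.0.16, R 4.3.3) covered the 9 libraries, with TMM scaling and the filterByExpr filter (minimum count 10, minimum total 15), which left 17704 genes and 6 residual degrees of freedom. Pairs of groups were compared by two-sided quasi-likelihood F tests, p-values were adjusted by Benjamini-Hochberg over all genes, and the threshold was 0.05. The SE was obtained by dividing the size of the log2 fold change by the root of F. The fit was also run on simulated counts with 200 changed genes, far fewer than are called here. That run cannot show how the fit performs on these data. The members, 14 partner lists and 15 marker lists were chosen with earlier results of these data known; 3 listed symbols (Mpc1l, Atp5pb and Ahsp) were not matched. Values per library are given for carriers called with at least a 2-fold change and 1 CPM, for the 8 most abundant per kilobase, and for Slc25a4 and Slc25a12. They are also given for Slc25a2, Slc25a11, Slc25a36 and Slc25a43, chosen after their values were seen. Partners are named by lowest p, up to 3 per list, apart from Arg1, Cps1 and Arg2, which lead the urea cycle list in FMT-Con A against Con A. Alternatives were DESeq2 1.42.0, other scalings, no filter, 2 groups only, a replicate block, each library left out, the muscle-rich libraries left out and a muscle covariate. Promoter windows came from RefSeq. One tested carrier enters the fits and counts, but its own values are not reported here.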

Additional observations from a re-analysis of the deposited data

How the results depend on the processing

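The count of carriers called in Con A against WT was 24 to 28 with each library left out in turn and 23 to 28 under the other alternatives, and in FMT-Con A against WT 19 to 23 and 11 to 25, the 11 being with the muscle covariate. In FMT-Con A against Con A the 17 became 7 with only 2 groups in the fit, 1 without the muscle-rich libraries, 0 with the muscle covariate (edgeR, with 11 at an unadjusted p under 0.05), and 5 to 22 with each library left out; it was 17 or 18 under DESeq2, DESeq2 size factors, scaling without mitochondrial-genome and muscle genes, and no filter. The cause was not tested. The replicate numbers were not shown to pair the libraries: same-numbered deviations correlated at -0.216 to 0.344 and 9 of 18 deviations correlated best with their own number. With 3 libraries per group this check cannot exclude a batch shared by number. With a replicate block 27, 16 and 22 carriers were called in Con A against WT, FMT-Con A against Con A and FMT-Con A against WT. Among the 43 tested carriers, log2 fold changes that changed sign belonged to comparisons not called. In Con A against WT, leaving out 1 library gave -0.159 to 0.122 for Slc25a1, -0.338 to 0.519 for Slc25a18, -0.382 to 0.0230 for Slc25a34, -0.0667 to 0.0472 for Slc25a39, -0.156 to 0.180 for Slc25a40, -0.0513 to 0.174 for Slc25a44, -0.166 to 0.300 for Slc25a47 and -0.389 to 0.281 for Slc25a53. There, sign changes were -0.0106 for Slc25a18 and -4.41e-05 for Slc25a53 with DESeq2 size factors; -0.0218 for Slc25a18 and -0.0120 for Slc25a53 with scaling without mitochondrial-genome and muscle genes; -0.0109 for Slc25a18 with only 2 groups; -0.00787 for Slc25a18 and -0.000993 for Slc25a53 under DESeq2; 0.0197 for Slc25a39 with no filter; 0.0304 for Slc25a39 without the muscle-rich libraries; 0.0125 for Slc25a39 with the covariate; -0.102 for Slc25a53 with the replicate block. In FMT-Con A against Con A, leaving out 1 library gave -0.218 to 0.0491 for Slc25a1, -0.296 to 0.0907 for Slc25a10, -0.0483 to 0.189 for Slc25a16, -0.0992 to 0.363 for Slc25a36, -0.0803 to 0.252 for Slc25a38 and -0.722 to 0.337 for Slc25a53. There, sign changes were 0.335 for Slc25a1, 0.0952 for Slc25a10, 0.150 for Slc25a30, 0.0132 for Slc25a32, -0.861 for Slc25a36, -0.264 for Slc25a38, 0.0526 for Slc25a48 and 0.743 for Slc25a53 without the muscle-rich libraries; 0.242 for Slc25a10, 0.344 for Slc25a30, -0.150 for Slc25a36, 0.120 for Slc25a47, 0.309 for Slc25a48 and 0.498 for Slc25a53 with the covariate. In FMT-Con A against WT, leaving out 1 library gave -0.255 to 0.0839 for Slc25a1, -0.270 to 0.141 for Slc25a15, -0.206 to 0.315 for Slc25a25, -0.305 to 0.286 for Slc25a27, -0.195 to 0.304 for Slc25a29, -0.253 to 0.190 for Slc25a36 and -0.718 to 0.258 for Slc25a53. There, sign changes were 0.234 for Slc25a1, -0.215 for Slc25a11, 0.461 for Slc25a15, -0.0250 for Slc25a29, 0.0561 for Slc25a33, 0.138 for Slc25a47 and 0.811 for Slc25a53 without the muscle-rich libraries; -0.361 for Slc25a11, 0.558 for Slc25a15, 0.316 for Slc25a2, 0.264 for Slc25a22, 0.312 for Slc25a47 and 0.576 for Slc25a53 with the covariate; 0.0318 for Slc25a15 with no filter; 0.00878 for Slc25a15 with only 2 groups. Depth limits Slc25a2, Slc25a31, Slc25a41, Slc25a43 and Slc25a54, each at 14 counts or fewer in every library.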
